A study of Mus musculus with 13 samples.

Results

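Esm1 encodes endocan, a small proteoglycan secreted by endothelial cells. Its transcript was followed across 13 arrays of mouse retina by the rule that every non-control probe naming Esm1 was taken, which gave 1 probe with 1 spot per array, and thus 1 gene of 33471 named on the array and of 31954 in the fit. A probe without a gene symbol counts here as a gene under its own identifier, and 16589 of the 31954 have a symbol. The arrays held 6 samples labelled tip, 4 labelled stalk and 3 labelled as a control of nonvascular retina. On every array the sample RNA was (Cy5), and Universal Mouse Reference RNA, a commercial pool used as a common comparator, was in green (Cy3), with no dye swap. The study looked for genes that set the endothelial tip cells of the retina apart. The labels used here name no strain, genotype, age or way of collecting the cells, and they do not tie samples to animals. All p-values therefore measure the spread between these samples, which may be technical in part.

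A vessel sprout is led by tip cells, which extend filopodia, while stalk cells form the tube behind them. In endothelial cells Esm1 is known to be induced by VEGF-A, and in the growing mouse retina it is widely used as a marker of tip cells. The endocan protein has a domain shared with insulin-like growth factor binding proteins (the IGFBP domain) and carries a dermatan sulfate chain. Endocan has been described to bind fibronectin and to increase the amount of VEGF-A available to its receptors, and the human protein binds the integrin LFA-1 and hepatocyte growth factor.

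The probe spans 60 bases on chromosome 13, which the array files give as chr13:109615859-109615918. No genome build is named there, so whether the probe lies in a coding part or a UTR of Esm1 was not determined here. The regulatory sequence next to the gene is shown because the arrays follow how much of its transcript is present. It is the 250 bases before the RefSeq start of Esm1 on the plus strand, chr13:113209409-113209658 in GRCm38.p6, a coordinate that cannot be set against that of the probe. Capitals mark the ETS core GGAA (seen here as its complement TTCC) and GCGTG, a form of the hypoxia response element.
Esm1 promoter: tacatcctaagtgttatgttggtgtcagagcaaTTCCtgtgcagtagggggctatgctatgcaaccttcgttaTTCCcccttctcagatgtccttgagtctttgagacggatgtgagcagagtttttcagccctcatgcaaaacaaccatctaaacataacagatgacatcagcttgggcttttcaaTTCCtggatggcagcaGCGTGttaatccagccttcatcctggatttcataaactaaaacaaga
The ETS core was found 3 times, each on the minus strand, at 217, 177 and 63 bases before the start. Of 32851 promoter windows of the same length, 93.4% held GGAA on either strand, with a median of 3 matches. GCGTG was found once, at 47 bases before the start, and 28.2% of windows held it. The other letters searched on both strands were ACGTG (hypoxia response element, in 16.6% of windows), GTAAACA (forkhead factors, 3.17%), TGGGAA (RBPJ, 21.6%, which overlaps the ETS core), TGANTCA (AP-1, 6.75%) and TATAAA (the core promoter box, 12.4%), and none of them was in this window. These matches describe the letters only. No binding was measured on these arrays.

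Before any normalization, the red signal of the Esm1 spot differed between the 3 groups. The mean red intensity was 47990, 21157, 20781, 19397, 14265 and 17806 scanner units in tip samples 1 to 6. It was 1582, 1759, 1558 and 2533 in the stalk samples, and 250, 218 and 267 in the nonvascular samples. All tip spots were brighter than every stalk spot, and all stalk spots were brighter than every nonvascular spot. Tip sample 1, the brightest, was also the array with the highest median red signal after subtraction of local background, 292 scanner units against 105 to 266 units on the other tip arrays. The green signal of the same spot, which measures Esm1 in the common reference, stayed at 248 to 346 units on all 13 arrays. Its highest value was 1.39 times its lowest, whereas the red signal spanned a factor of 220. The spot was well above background in both channels on 13 of 13 arrays and saturated on 0. Local background in red was 52 to 56 units, so the nonvascular spots were the ones nearest to it.

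**Figure D1:**
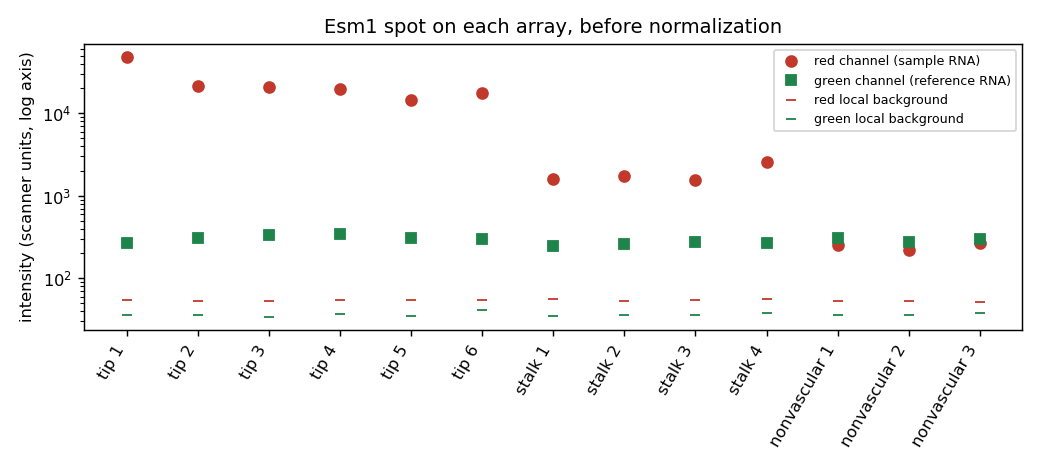
Mean intensity of the Esm1 spot on each of the 13 arrays before normalization, in scanner units on a log axis; circles are the sample channel, squares the reference channel and dashes the local background of each. The red signal runs from 14265 to 47990 in tip samples, 1558 to 2533 in stalk samples and 218 to 267 in nonvascular samples, while the green signal stays between 248 and 346.

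After background correction and within-array normalization, the level of Esm1 is given as the log2 ratio of sample over reference. Tip samples 1 to 6 stood at 4.71, 4.66, 4.29, 4.51, 4.60 and 5.10, a mean of 4.64 ± 0.27 (SD, n = 6). Stalk samples 1 to 4 stood at 1.60, 1.65, 1.59 and 2.25, a mean of 1.78 ± 0.32 (SD, n = 4). Nonvascular samples stood at −1.92, −1.58 and −1.72, a mean of −1.74 ± 0.17 (SD, n = 3). As geometric means, Esm1 RNA was 25.0 times the reference in tip, 3.42 times in stalk and 0.300 times in nonvascular retina. In the authors' deposited table the Esm1 ratio was 23.1 to 43.1 in tip, 3.88 to 6.01 in stalk and 0.197 to 0.261 in nonvascular samples, the same order with a wider span. The order was tip, stalk, nonvascular in every sample, and no neighbours in that order overlapped. The lowest tip sample lay 2.04 above the highest stalk sample, and the lowest stalk sample lay 3.17 above the highest nonvascular sample, both on the log2 scale. Within groups, Esm1 varied more than most genes: its SD exceeded that of 88.4% of genes among tip samples, 91.2% among stalk samples and 74.4% among nonvascular samples. Stalk sample 4 stood apart from the other stalk samples.

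**Figure D2:**
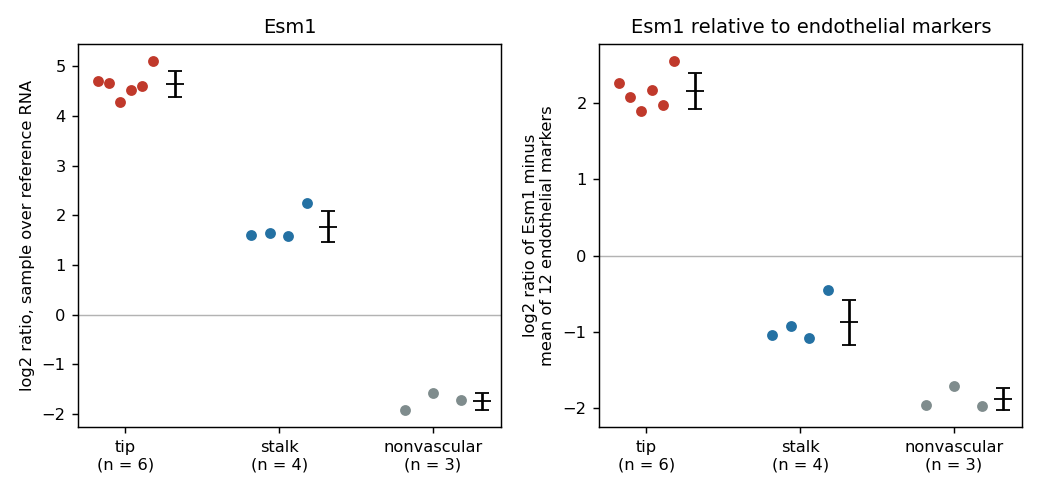
Esm1 in each sample, as the log2 ratio over the reference RNA (left) and as that ratio minus the mean log2 ratio of 12 endothelial markers (right); points are arrays, and bars are the group mean ± SD (n = 6 tip, 4 stalk and 3 nonvascular). In both panels the 3 groups do not overlap, and stalk sample 4 is the highest stalk point.

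The comparison of tip with stalk asks whether the transcript is more abundant in samples labelled tip than in those labelled stalk. Position along a sprout was not measured. Esm1 was 7.31-fold higher in tip (log2 difference 2.87 ± 0.16, SE; limma adjusted p = 2.77e-06). Among 31954 genes this was the largest tip minus stalk difference, and it also had the largest moderated t. Of all genes 2.78% were called in either direction and 1.47% as higher in tip, and in 2.73% of genes every tip sample lay above every stalk sample. The split of calls moved with the scaling: 469 genes were higher and 420 lower as reported, 49 and 202 with median centring of the arrays, and 211 and 481 in the red channel alone. The genes next in the ranking were Angpt2, a ligand of the Tie receptors made by endothelium, at 1.82 ± 0.29 (adjusted p = 0.00658), and Tesc, which encodes a calcium-binding protein, at 1.81 ± 0.36 (adjusted p = 0.0208). Tesc was called in 20 of 25 alternatives, with an adjusted p of up to 0.198, and lost its call without stalk sample 1 or stalk sample 3. The gap between Esm1 and Angpt2 was larger than the standard error of either, but the difference between the 2 genes was not tested. An exact two-sided permutation test of Esm1 between tip and stalk gave p = 0.00952, the smallest value that 6 against 4 samples allow. In 24 of 25 alternative ways of processing the arrays the difference stayed the largest, and with the scanner software's own log ratios it came at rank 2. By moderated t Esm1 came at rank 1 or 2 over these alternatives.

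Against nonvascular retina, Esm1 was higher in both vessel groups. Tip exceeded nonvascular by 6.38 ± 0.17 on the log2 scale, 83.4-fold (limma adjusted p = 2.04e-10), the largest difference among all genes in the fit. It was followed by Prnd at 5.56 ± 0.21 and Nid1, a basement membrane protein, at 5.47 ± 0.26. By moderated t Esm1 came at rank 7 in this comparison. Of all genes 28% were called in either direction and 11.2% as higher in tip, and in 11% of genes the tip samples all lay above the nonvascular samples. Stalk exceeded nonvascular by 3.51 ± 0.19, 11.4-fold (limma adjusted p = 3.57e-08), which placed Esm1 at rank 62 of all genes, and at rank 99 by moderated t. There 29.8% of all genes were called in either direction and 11.3% as higher in stalk, and in 16% every stalk sample lay above every nonvascular sample. Its neighbours among genes with a symbol were Myh9 (3.58) and Vwa1 (3.55) above and Procr (3.50) and Tm4sf1 (3.49) below, all within the standard error of Esm1. The exact two-sided permutation test gave p = 0.0238 for tip against nonvascular and p = 0.0571 for stalk against nonvascular, in each case the smallest that the numbers of samples allow, so the second could not reach 0.05. The size of both fold changes moved with the processing. With the scanner software's log ratios they were 132-fold for tip and 18.8-fold for stalk, and with normexp at an offset of 0 they were 126-fold and 17.8-fold. The red channel alone gave 114-fold for tip against nonvascular and put 2 genes above Esm1 in that ranking, at rank 3.

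**Figure D3:**
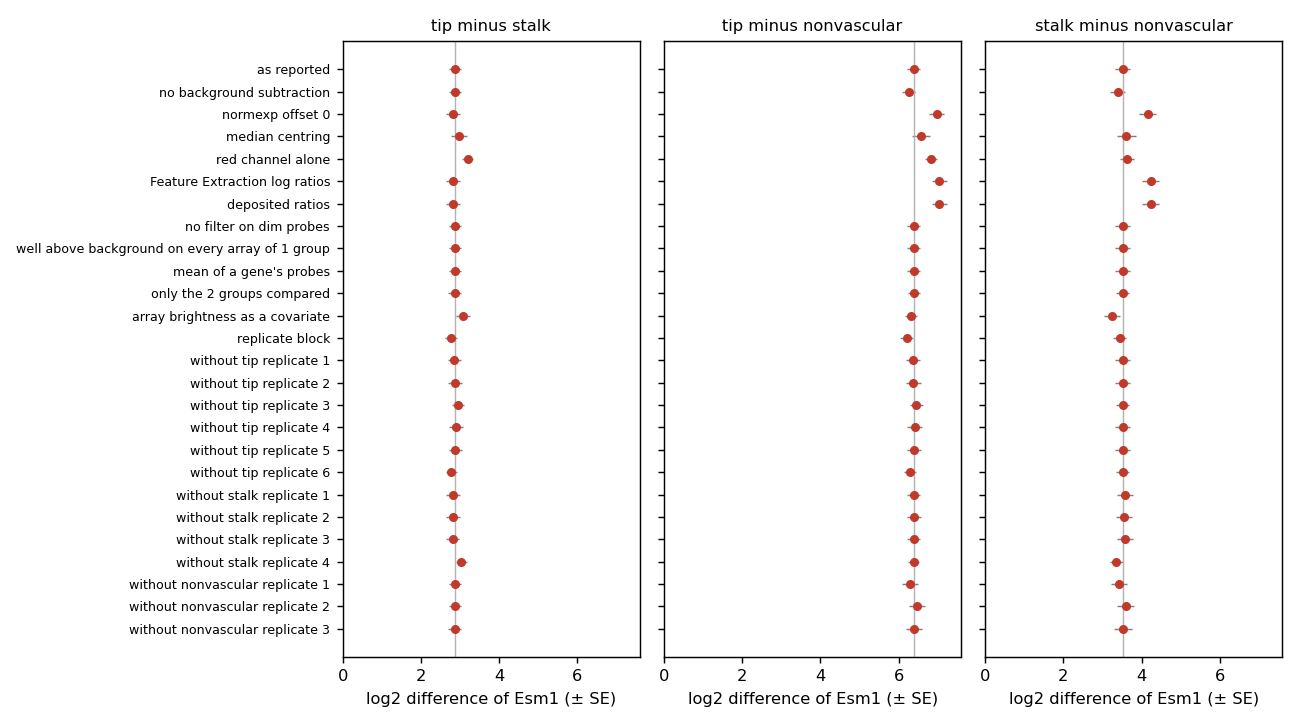
Log2 difference of Esm1 (± SE) in the 3 comparisons as reported (top row, grey line) and under 25 alternatives. Tip minus stalk stays between 2.77 and 3.20, tip minus nonvascular between 6.21 and 7.04, and stalk minus nonvascular between 3.24 and 4.23.

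Each sample is a mixture of cells, and in bulk RNA fewer cells of a type and less RNA per cell cannot be told apart. Of 12 endothelial markers, tip had 0 higher than stalk and 1 lower, Egfl7 (−0.41 ± 0.06, limma adjusted p = 0.00473), and at an unadjusted p under 0.05 these counts were 0 and 5. Over all genes 1.47% were called higher and 1.31% lower. At an unadjusted p under 0.05 there were 5763 of 31954 genes, both directions together. The mean log2 ratio of these markers was 2.34 to 2.63 in tip, 2.58 to 2.70 in stalk and 0.04 to 0.25 in nonvascular samples. Of the 12 markers, 10 were higher in tip and 9 in stalk than in nonvascular retina, against 11.2% and 11.3% of all genes. Tek and Clec14a were the 2 not called between tip and nonvascular. When Esm1 was expressed relative to the marker mean of the same array, it stood at 1.90 to 2.55 in tip, −1.08 to −0.45 in stalk and −1.97 to −1.71 in nonvascular samples. On this scale tip exceeded stalk by 3.03, or 8.16-fold, with no overlap (exact two-sided permutation p = 0.00952, n = 6 and 4). Tip exceeded nonvascular by 4.03, whereas stalk exceeded nonvascular by 1.00 (exact two-sided permutation p = 0.0238 and p = 0.0571, again the smallest values possible). Both sizes depend on the markers averaged. Pecam1, Tek and Clec14a, not called between stalk and nonvascular, differed there by only 0.12, 0.23 and 0.19, which lowers the marker mean difference. The 9 called markers ran from 1.41 (Erg) to 4.80 (Icam2). A marker mean without the uncalled markers was not tested, so the 1.00 does not establish a stalk excess over endothelial signal. The direct tip minus nonvascular difference of Esm1, 6.38, lay above that of every endothelial marker, the highest of which was Icam2 at 4.35. Its stalk minus nonvascular difference of 3.51 lay inside the range of the markers, 0.12 to 4.80.

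Markers of other cells also moved between the groups. Of 10 pericyte markers, tip had 7 lower and 0 higher than stalk by limma (8 and 0 at an unadjusted p under 0.05), against 1.31% lower and 1.47% higher over all genes. Their mean log2 ratio was 0.99 to 1.32 in tip, 1.70 to 1.88 in stalk and −0.81 to −0.65 in nonvascular samples. The mean of 9 ganglion cell markers was 0.51 to 0.89 in tip, −0.33 to 0.77 in stalk and 2.59 to 2.88 in nonvascular samples. By limma 0 of these 9 passed between tip and stalk, and 3 were higher at an unadjusted p under 0.05. The mean of 8 astrocyte markers was 1.58 to 1.88 in tip and 1.63 to 1.83 in stalk, and nonvascular sample 3 stood at 1.21 against −0.04 and −0.05 in the other 2. By limma 0 astrocyte markers passed between tip and stalk, and 1 was lower at an unadjusted p under 0.05. Of 8 Mueller glia markers 1 was lower in tip, and of 10 photoreceptor, 10 amacrine and bipolar cell, 10 microglia and macrophage and 4 erythroid markers 0 passed, with 1 microglia marker lower at an unadjusted p under 0.05. The part of these markers in the Esm1 result was not tested. In nonvascular sample 3 Esm1 lay between the other 2, and without that sample the tip minus nonvascular difference was 6.39. Stalk arrays were scanned first, tip arrays next and nonvascular arrays after them, and tip sample 5 was scanned on another day. The order of scanning and the groups cannot be told apart. Without tip sample 5 the tip minus stalk difference of Esm1 was 2.88.

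The genes whose pattern was most like that of Esm1 were ranked by Pearson's r of the log2 ratios among 16273 genes with a symbol. The values are descriptions: the arrays fall into 3 separate groups and share a reference RNA, and the median r over these genes was −0.04. Over all 13 arrays the 10 highest were Kcne3 (0.99), Apln (0.99), Akr1b8 (0.98), Ccn4 (0.97), Nup210, Oaf, Gm2a, Arhgap25, Phlda3 and Lxn (0.96). A high r with Esm1 on these arrays fixes the order tip, stalk, nonvascular, so the levels below are descriptions with no test. Kcne3, a potassium channel beta subunit, stood at 2.97, 3.07, 2.91, 3.11, 3.33 and 3.15 in tip, 1.36, 1.98, 1.60 and 1.93 in stalk and 0.20, 0.06 and 0.40 in nonvascular samples. Its groups did not overlap, and its tip level was 2.59-fold that of stalk (log2 difference 1.37). Apln encodes the secreted peptide apelin and stood at 1.73 to 2.34 in tip, 0.98 to 1.33 in stalk and 0.06 to 0.13 in nonvascular samples. Its tip level was 1.85-fold that of stalk (log2 difference 0.89), with 1 of its other probes at 0.91 and another at −0.07. Gm2a, a lysosomal activator protein, had the smallest tip minus stalk difference of the 10, at 0.22, and a second probe at 0.01.

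Within the 10 tip and stalk arrays alone, the 5 highest were Angpt2 (r = 0.97), Chst1 (0.97), Vti1b (0.97), Kcne3 (0.97) and Spryd4 (0.97), against a median of 0.03. Kcne3 was on both lists, and of the first 100 of each ranking 27 genes were shared. Angpt2 stood at 3.25 to 3.74 in tip and 1.44 to 2.13 in stalk, and in nonvascular samples at −0.21, −0.46 and 1.38, so nonvascular sample 3 came close to the stalk range. Chst1, a sulfotransferase that acts on keratan sulfate, stood at 0.06 to 0.43 in tip, −1.60 to −1.34 in stalk and −0.71 to −0.32 in nonvascular samples. Unlike Esm1, it was lower in stalk than in nonvascular retina (−0.99, limma adjusted p = 2.23e-05), and its r over all 13 arrays was 0.49. Vti1b, a SNARE protein of vesicle fusion, and Spryd4 were likewise lower in stalk than in nonvascular samples. The ranking depended on the measure: of the 10 named over all arrays, 2 were among the first 10 by Spearman's rho, and of the 5 named over tip and stalk, 0 were among the first 5.

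**Figure D4:**
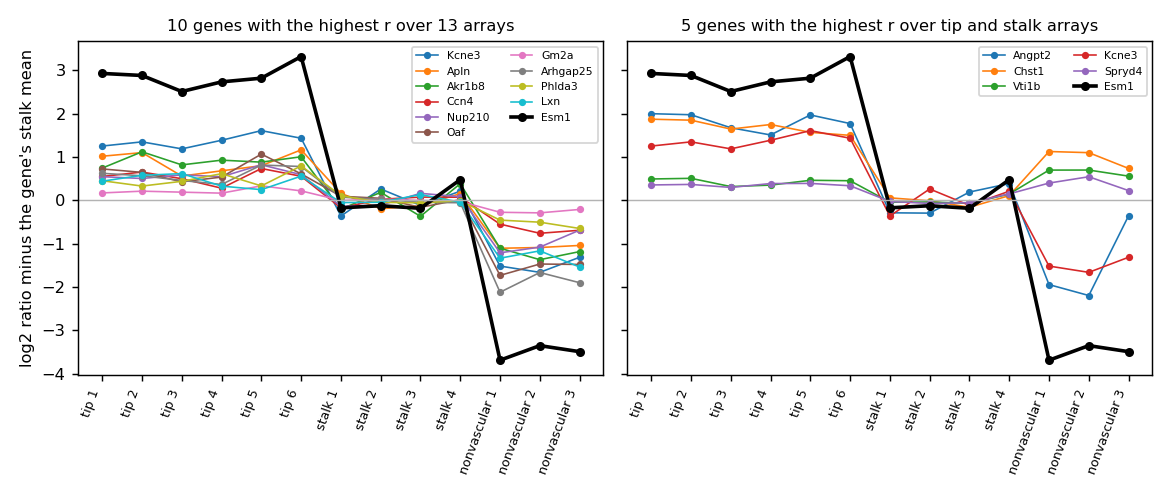
Log2 ratio minus the gene's own stalk mean on each array for Esm1 (black) and the genes with the highest Pearson r over all 13 arrays (left, 10 genes) or over the 10 tip and stalk arrays (right, 5 genes). The other genes change between the groups by less than Esm1; in the right panel Chst1, Vti1b and Spryd4 are above their stalk level in nonvascular samples.

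A list of 29 other genes described for tip cells was set beside Esm1. In tip minus stalk 12 of the 29 were higher and 0 lower by limma (19 and 1 at an unadjusted p under 0.05), with a median of 0.47 against 0.0028 over all genes, where 1.47% were called higher and 1.31% lower. The list holds genes reported from retinal tip cells, in part with earlier results of these samples known, so it is not independent evidence of its direction. Of the 12, the largest were Angpt2 (1.82), Adm, the peptide adrenomedullin (1.78 ± 0.28), Chst1 (1.70 ± 0.10), Trp53i11 (1.55 ± 0.19), the chemokine receptor Cxcr4 (1.47 ± 0.21) and Kcne3. Cxcr4 had a second probe at 0.14. Dll4, the Notch ligand of tip cells, was 1.33-fold higher (0.41 ± 0.07, limma adjusted p = 0.00714). Between 7 and 14 members were called higher over the alternatives and 0 lower. The same 29 genes had 20 higher and 3 lower in tip than in nonvascular retina, against 11.2% higher and 16.8% lower over all genes. They had 15 higher and 3 lower in stalk than in nonvascular retina, against 11.3% higher and 18.6% lower over all genes.

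VEGF-A is a well known inducer of Esm1. Vegfa stood at 1.61, 1.04, 1.17, 0.97, 1.43 and 1.09 in tip, 0.21, 0.01, 0.20 and 0.18 in stalk and −2.35, −2.06 and −0.34 in nonvascular samples. Every tip sample lay above every stalk sample, and the difference was 1.07 ± 0.30, but it did not pass the threshold (limma adjusted p = 0.0838). The 3 groups share an estimate of spread, and without nonvascular sample 3 the same difference had an adjusted p of 8.51e-04. It passed in 3 of 25 alternatives, and the adjusted p over all of them reached 0.332. The other Vegfa probes gave 0.49 and 1.30. Among 10 VEGF ligands and receptors, tip had 0 higher and 1 lower than stalk by limma (3 and 3 at an unadjusted p under 0.05), with a median of −0.09 and the same background of 1.47% and 1.31%. The lower member was Flt1, the receptor that acts as a decoy for VEGF-A, at 1.91 to 2.34 in tip and 2.96 to 3.24 in stalk (−0.94 ± 0.11, limma adjusted p = 8.22e-04). Kdr, the main signalling receptor, stood at 4.00 to 4.52 in tip, 4.78 to 5.10 in stalk and 2.92, 2.97 and 4.20 in nonvascular samples, with a tip minus stalk difference of −0.66 ± 0.21 (limma adjusted p = 0.120). It passed the threshold without nonvascular sample 3 (adjusted p = 0.00419).

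Other genes whose proteins carry the IGFBP domain moved in both directions or gave no call. Of 19 listed, 17 were in the fit, and in tip minus stalk 2 were higher and 2 lower, with a median of −0.08, against 1.47% higher and 1.31% lower over all genes. The higher members were the matricellular protein Ccn4 (0.55 ± 0.08, limma adjusted p = 0.00491) and Igfbp4 (0.73 ± 0.16, adjusted p = 0.0348). Igfbp4 was called in 12 of 25 alternatives, and a second probe of it gave 0.13. The lower members were the secreted proteases Htra3 (−1.43 ± 0.16, adjusted p = 6.16e-04) and Htra1 (−1.38 ± 0.25, adjusted p = 0.0128), and a second Htra3 probe gave 0.03. Igfbp3, also in the tip cell list, stood at −0.07 to 0.21 in tip and 0.14 to 0.23 in stalk (difference −0.08 ± 0.05, adjusted p = 0.464). Htra4 and Crim1 were not analysed here.

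Among 17 enzymes of chondroitin and dermatan sulfate synthesis in the fit, of 23 listed, tip had 2 higher and 0 lower than stalk by limma (3 and 1 at an unadjusted p under 0.05), with a median of 0.09, against 1.47% higher and 1.31% lower over all genes. These were Csgalnact1, which starts the chondroitin chain (0.60 ± 0.13, limma adjusted p = 0.0339), and Pxylp1, a phosphatase of the linker sugar (0.35 ± 0.08, adjusted p = 0.0328). Each was called in 13 of 25 alternatives, and a second Pxylp1 probe gave 0.00. The enzymes specific to dermatan sulfate that were in the fit, Chst14 and Dse, gave no call between tip and stalk. The further epimerase gene Dsel was not analysed here. Chst14, the 4-O-sulfotransferase of dermatan sulfate, stood at −0.14 to 0.41 in tip, −0.13 to 0.24 in stalk and −1.74 to −0.93 in nonvascular samples. Its tip minus stalk difference was 0.09 ± 0.15 (adjusted p = 0.795), and −0.01 in the red channel alone, whereas tip exceeded nonvascular by 1.59 (adjusted p = 8.98e-06) and stalk by 1.502 (adjusted p = 2.79e-05). The epimerase Dse had a tip minus stalk difference of 0.08 ± 0.09 (adjusted p = 0.677).

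**Figure D5:**
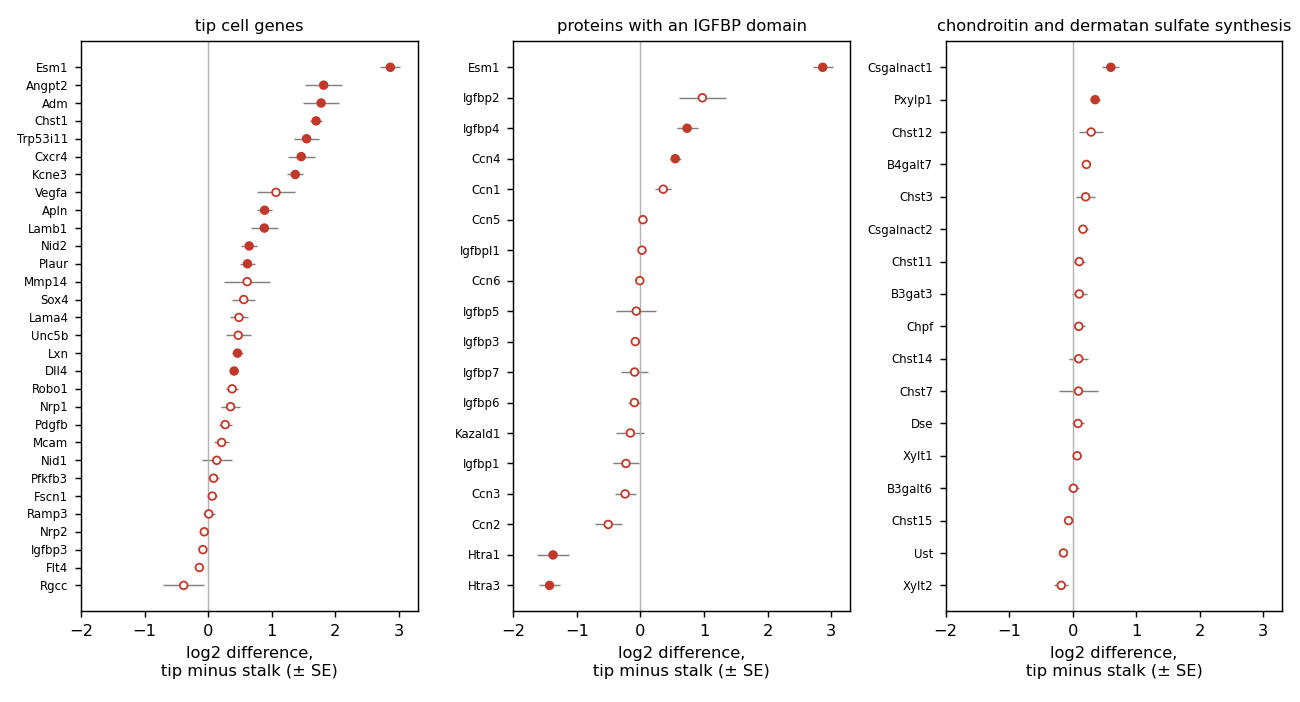
Tip minus stalk log2 difference (± SE) of Esm1 and of the members in the fit of 3 lists; filled points have a limma adjusted p under 0.05 and open points do not. Esm1 at 2.87 lies to the right of every other point; 12 other tip cell genes, 2 other IGFBP-domain genes and 2 synthesis enzymes are filled on the right, and Htra1 and Htra3 on the left.

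Of 19 other cores of small or secreted proteoglycans in the fit, of 21 listed, tip had 0 higher and 1 lower than stalk by limma (0 and 3 at an unadjusted p under 0.05), with a median of −0.05. The lower one was serglycin, Srgn, a proteoglycan of secretory granules, at −1.38 to −0.36 in tip and 0.36 to 1.14 in stalk (−1.48 ± 0.19, limma adjusted p = 0.00154). Over all genes 1.47% were called higher and 1.31% lower, so a count of 0 higher among 19 is near that background. The tip minus stalk differences of these 19 ran from −1.48, that of Srgn, to 0.11. A list of 6 genes was drawn up for partners of endocan: both chains of LFA-1, hepatocyte growth factor, fibronectin, Vegfa and Icam1. Icam1 is on this list although no binding of it to endocan is described here. Of the 6 genes, 0 passed the limma threshold in tip minus stalk. Over all genes 2.78% passed in either direction, so this count is near that background. At an unadjusted p under 0.05, 1 gene, Vegfa, was higher, and the median of the list was 0.08. Itgb2 and Icam1 stood at 0.01 ± 0.07 and −0.01 ± 0.06.

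Of 21 transcription factors known in endothelium, tip had 2 higher and 7 lower than stalk, with a median of −0.23, against 1.47% higher and 1.31% lower over all genes. Several belong to the families whose core letters were searched in the Esm1 promoter. The lower ones included Sox17 (−1.44 ± 0.12, limma adjusted p = 4.64e-05), the ETS factor Fli1 (−1.14 ± 0.13, adjusted p = 5.85e-04), the forkhead factors Foxc1 (−1.15 ± 0.12) and Foxc2 (−0.89 ± 0.19, adjusted p = 0.0304), Gata2 (−0.86 ± 0.07) and Mef2c (−1.01 ± 0.19). Foxc2 was called in 16 of 25 alternatives, with an adjusted p of up to 0.211, and lost its call without any single stalk sample and without tip sample 3 or 5. The other Sox17 probes gave −0.04 and −0.28. Fli1 was the only ETS factor of the list with a call. The others, named after their values were seen, went in both directions. Ets2 stood at 0.87 ± 0.23 (limma adjusted p = 0.0681), Etv4 at 0.18, Erg at 0.05 and Etv2 at 0.04. Etv5 stood at −0.06, Ets1 at −0.09 and Elk3 at −0.42. The factors called higher were Rbpj (0.52 ± 0.12, limma adjusted p = 0.0338) and Hif1a (0.49 ± 0.12, adjusted p = 0.0445), named after their values were seen. Between 0 and 3 factors were called higher over the alternatives. Against nonvascular retina 16 of the 21 were higher and 1 lower in tip, where 11.2% of all genes were higher and 16.8% lower. In stalk 15 were higher and 1 lower, where 11.3% of all genes were higher and 18.6% lower. The lower factor was Hif1a in both, unlike Esm1. It differed by −0.47 in tip (limma adjusted p = 0.0127) and by −0.96 in stalk (adjusted p = 1.28e-04).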

How the data were processed

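RNA from 6 tip, 4 stalk and 3 nonvascular retina samples was hybridised in red against a common reference in green. Per the file headers and the submitters' processing notes, the scanner software was Agilent Feature Extraction 8.5.1.1. The deposited scanner files give, per spot and channel, a mean intensity and a local background intensity, neither normalized by the authors. Their log10 ratio compares background-subtracted, dye-normalized red with green, per the file headers. In the authors' deposited value table each value is a linear ratio: on each array at least 99.96% of probes equalled the antilog of that log10 ratio within 0.01 on the log2 scale. The median ratio per array was 1.06 to 1.15, and 631 to 1555 probes were missing.

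Log2 ratios (sample over reference) were recomputed from these intensities, with normexp background correction (offset 50) and loess within each array in limma 3.58.1 under R 4.3.3. Control spots had weight 0, and outlier spots were left out. Probes were named through a RefSeq table (GRCm38.p6): 22072 by their own accession, 142 by another accession and 1245 by the symbol in the description, and 17715 kept the file's name. The brightest probe stood for a gene, which was kept where red was well above background on at least 3 of 13 arrays. All arrays entered a model of 3 group means, with Benjamini-Hochberg adjustment over all 31954 genes and a threshold of 0.05. Exact permutation tests are two-sided. The model of group means was run on simulated log2 ratios with known changes. Background correction, normalization, probe naming and the filter were not part of that check. Median red intensity minus local background was 105 to 292 scanner units in tip, 98.1 to 141 in stalk and 166 to 282 in nonvascular arrays, and the number of arrays limits the precision.

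Esm1, the gene lists and the tests were chosen with earlier results of these data known. Genes named are the 10 and the 5 most like Esm1, up to 6 called members of each list with the smallest p, the neighbours of Esm1 in the rankings, and Vegfa, Kdr, Flt1, Dll4, Angpt2, Apln, Cxcr4, Igfbp3, Chst14 and Dse. Others are named as members of marker lists or are marked as seen first. Alternatives changed the background correction, the normalization, the source of the ratio, the filter, the probe rule, the samples and the covariates, or left out 1 array at a time. Same-numbered samples of different groups correlated in their deviations from the group means at −0.14 to 0.08. Such a correlation cannot decide whether they share an animal, and the labels do not say. Samples were therefore treated as unpaired. Promoter letters come from RefSeq's GRCm38.p6 sequence, and Python 3.11.15 with matplotlib 3.10.9 drew the figures.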

Additional observations from a re-analysis of the deposited data

Results flagged for a closer look

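Stalk sample 4 had an Esm1 log2 ratio of 2.25, against 1.59 to 1.65 in the other 3 stalk samples, and its gap to the nearest of them made up 0.910 of the range of the group. Of 4 such checks (Esm1 as a ratio and relative to the endothelial markers, in tip and in stalk samples), this was the 1 that passed the limit for a single array far from its group, a limit that chance also passes now and then. Relative to the endothelial markers stalk sample 4 was again the highest, at −0.45, with a gap of 0.749 of the range. Without it, tip exceeded stalk by 3.03 (limma adjusted p = 3.37e-06) and stalk exceeded nonvascular by 3.35. It was the highest stalk sample for 178 of 467 other genes called higher in tip with a value in each stalk array (38.1%), against 26.7% of all genes, and for 9 of 29 genes of the tip cell list. Stalk sample 2 was the highest for 165 of the 467 (35.3%), against 23.8% of all genes.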

How the results depend on the processing

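Under 26 alternatives for each comparison, Esm1 kept its direction in all and its side of the threshold in all but one: tip minus stalk was 2.77 to 3.20, tip minus nonvascular 6.21 to 7.04 and stalk minus nonvascular 3.24 to 4.23. The exception was the exact permutation test of stalk against nonvascular (difference 3.51, p = 0.0571), which cannot go lower with these numbers of samples. Some alternatives could not move the difference itself. Esm1 has 1 probe, so the filters and the probe rule left it unchanged. The same holds for the permutation test, for fitting only the groups compared and for leaving out an array of the third group. Leaving out single arrays gave 2.78 to 3.03, 6.29 to 6.46 and 3.35 to 3.59. The replicate block gave 2.77 (limma adjusted p = 0.00075), 6.21 and 3.44, although the labels do not say whether the numbers pair samples. Relative to the endothelial markers, tip minus stalk was 2.95 to 3.22 under 34 alternatives.

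Counts of calls depended more on the processing, and the cause was not tested. Over all genes, tip had 469 higher and 420 lower than stalk (5763 at an unadjusted p under 0.05). Median centring gave 49 and 202, which moves the share of higher among called genes to 19.5%, against 52.8%. The red channel alone gave 211 higher (30.5% of called genes), the scanner's log ratios 297, the deposited ratios 307, and brightness as a covariate 76 higher and 148 lower. Leaving out 1 array gave 187 to 1014 higher and 257 to 580 lower: 1014 higher without tip sample 6, 187 and 257 without stalk sample 1, 199 and 266 without stalk sample 3, 250 and 272 without tip sample 2, and 246 higher without tip sample 3. Median centring also gave 2183 genes higher in tip than in nonvascular retina, against 3566.

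Of the lists in tip minus stalk, median centring gave 7 higher tip cell genes, 0 higher IGFBP-domain genes, 0 higher synthesis enzymes, and 0 higher and 4 lower transcription factors. The red channel alone gave 0 higher in the last 3 of these lists. Brightness as a covariate gave 7 higher tip cell genes, 1 higher and 1 lower IGFBP-domain gene, 0 enzymes and 0 higher factors. The replicate block gave 1 higher and 1 lower IGFBP-domain gene and 0 enzymes. The scanner's log ratios gave 0 enzymes and 0 higher factors, the deposited ratios 0 and 1. Normexp without offset gave 1 higher IGFBP-domain gene and 1 higher factor, and no background subtraction 1 higher factor. The mean of a gene's probes gave 1 higher VEGF gene, 1 higher IGFBP-domain gene, 1 enzyme, 2 lower proteoglycan cores and 1 higher partner. Fitting only the groups compared gave 1 higher and 2 lower VEGF genes, 1 enzyme, 2 partners and 0 higher factors. Leaving out 1 array gave 8 to 14 higher tip cell genes, 0 to 1 higher and 1 to 2 lower VEGF genes, 1 to 3 higher and 2 to 3 lower IGFBP-domain genes, 0 to 2 enzymes, 0 to 2 partners, and 0 to 3 higher and 5 to 8 lower factors. Without nonvascular sample 3, VEGF genes had 1 higher and 2 lower and partners 2 higher. The tip minus stalk difference of Chst14, not called, turned to −0.0112 with the red channel alone. A slide block was not run because each array is its own slide. The nonvascular spots of Esm1, nearest to background, limit the fold changes against nonvascular retina more than that of tip against stalk.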
